A study of Cunninghamia lanceolata with 3 samples.

Results

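In Cunninghamia lanceolata, the conifer called Chinese fir, the library of the active vascular cambium was compared with the reactivating library across all annotation. Of 53590 unigenes (assembled transcript sequences) with a read in the series, 36079 had at least 20 uniquely mapped reads in these 2 libraries together and are called measured here, and 52444 had at least 1 read in either. The series holds 3 RNA-seq libraries of this tissue, with stages named dormant, reactivating and active and 1 library for each, and the dormant levels are set beside the others as values, with no ratio computed from them. For every stage the labels name the same material, trees of 16 years, 15 m in height and 12 cm in diameter that grew under natural conditions, with the cambium cut as tangential cryosections. The labels name no treatment, genotype, sampling date or number of trees, so each stage is 1 library that may come from 1 tree or a pool. No difference below has a replicate check, and each describes these 2 libraries.

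The cambium is a sheet of dividing cells that forms wood (xylem) on its inner side and phloem on its outer side. Cells that leave it toward the wood first enlarge with a thin, extensible primary wall. They then lay down a thick secondary wall of cellulose, hemicellulose and lignin, and in conifers nearly all of them die as empty, water-conducting tracheids. Cellulose is made by cellulose synthase complexes in the plasma membrane. Lignin is made from phenylalanine through the monolignol pathway, and laccases and peroxidases join its subunits in the wall. A tangential section holds cambium together with cells on both sides of it, so fewer cells of a type and less RNA per cell cannot be told apart.

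The reactivating library held 5.85 M uniquely mapped reads and the active library 5.84 M, so the reads of a unigene can be set side by side almost directly. The dormant library held 5.85 M. A ratio below is the ratio of RPKM values (reads per kilobase of unigene, scaled to the total of the library), active over reactivating. The range in parentheses after it is a 95% counting interval, which covers the sampling of reads and not the spread between trees. The words higher and lower in a count mean a difference of 2-fold or more. A library without reads was set to 3 reads, and the ratio is then a lower bound. Where 3 read numbers follow each other, they stand for the dormant, reactivating and active library in that order.

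The 2 libraries were alike for most unigenes and differed on one side far more than on the other at the extremes. Of the 36079 measured unigenes 2439 (6.76%) were higher in the active library and 1853 (5.14%) lower, and the median log2 ratio was -0.06. Between the 25% and the 75% quantile the log2 ratios ran from -0.39 to 0.30. At least 4-fold, 774 were higher and 245 lower, and at least 10-fold, 361 were higher and 22 lower. Past 30-fold there were 179 against 2, and past 100-fold 69 against 0. The interval lay wholly beyond 2-fold for 961 unigenes (2.66%) on the higher side and 311 (0.862%) on the lower side.

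**Figure D1:**
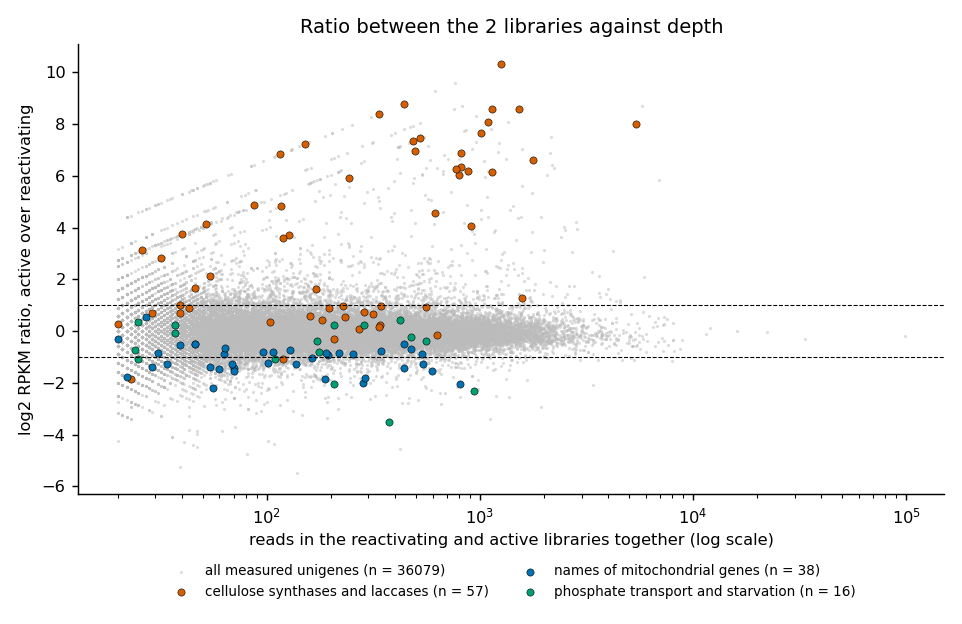
Log2 RPKM ratio (active over reactivating, vertical axis) of every measured unigene against its reads in both libraries together (horizontal log axis), with cellulose synthases and laccases in orange, mitochondrial gene names in blue and phosphate genes in green. The dashed lines mark 2-fold, most points lie between them, and the orange points reach a log2 ratio of 10.30.

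The share of unigenes past 2-fold was largest among those with few reads. Among the 8179 unigenes with 20 to 49 reads, 11.9% were higher and 10.9% lower. Among the 6719 with at least 500 reads, 4.79% were higher and 1.8% lower. The 2 sides were thus near each other in the shallow unigenes and apart in the deep ones.

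**Figure D2:**
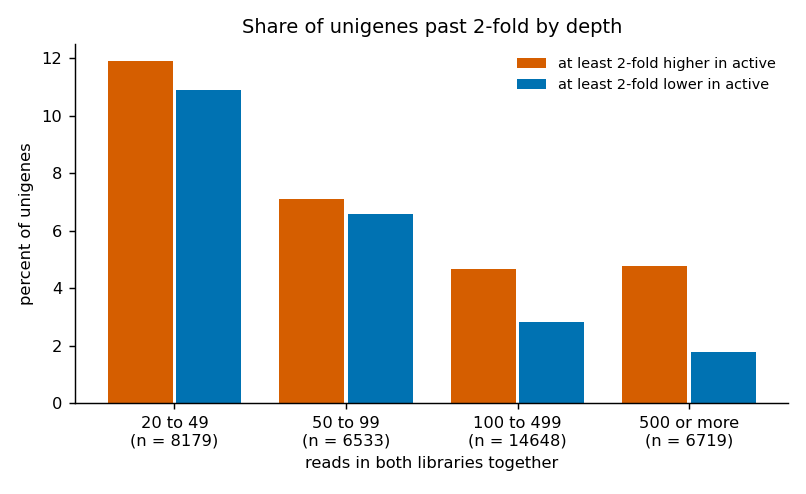
Percent of unigenes at least 2-fold higher (orange) or lower (blue) in the active library, vertical axis, in 4 classes of reads in both libraries together, horizontal axis. Both shares are largest in the class of 20 to 49 reads, and from 500 reads on the higher share is 4.79% and the lower 1.8%.

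The higher and lower groups were chosen by their ratio, so the direction of their shares in the reactivating and active libraries follows from that choice. The 2439 higher unigenes held 1.99% of the reads of the reactivating library, 8.25% of the active one and 3.77% of the dormant one. The 1853 lower unigenes held 3.44%, 1.32% and 6.76% in the same order. In the higher group, 94 unigenes had no read in the reactivating library, and in the lower group 6 had none in the active library. A best hit (the closest protein in a public protein collection) was given for 63.7% of the higher, 43.1% of the lower and 65.6% of all measured unigenes. The lower unigenes were also shorter, with a median of 311 bases against 377 for the higher and 410 for all.

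The largest gains of single unigenes, in reads, came from a few abundant ones. Unigene10759, with a best hit described only as a predicted protein, had 3002, 121 and 6835 reads. Unigene38860, also of unknown function, had 1240, 14 and 5740 reads. The laccase Unigene56615 followed with 1974, 21 and 5357 reads, an RPKM of 386, 4.1 and 1048. Each of them was low in the reactivating library alone, which a choice by gain over that library favours. Unigene59276, of 1853 bases and without a best hit, had 541, 1131 and 4730 reads, 4.19-fold higher (3.92 to 4.47), and here the active library alone was high. The largest loss on the lower side at 2-fold was that of Unigene13610, of unknown function, with 1368, 5486 and 2445 reads, 2.24-fold lower (2.14 to 2.35).

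Gene ontology (GO) sorts proteins by the process they take part in, their molecular function and the cell component where they act. Of the 9783 measured unigenes with a Process term 6.59% were higher and 3.5% lower. For the 12523 with a Function term the shares were 6.86% and 3.11%, and for the 10958 with a Component term 6.34% and 3.09%. Among terms with at least 10 measured unigenes, 291 were Process, 234 Function and 82 Component terms. Their medians lay within 0.5 of a log2 ratio of 0 for 281, 229 and 81 of them. A median of at least 1 was seen for 2 Process and 2 Function terms, and a median of -1 or less for 0 terms of any kind. No member was past 2-fold in either direction in 70 Process, 60 Function and 21 Component terms.

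The Process terms with the highest share of higher unigenes belonged to the wall and to lignin. Of the 19 unigenes of plant-type cell wall biogenesis 14 were higher and 0 lower (median log2 ratio 4.19). Their reads summed to 1689, 892 and 6934. Of the 21 unigenes of lignin metabolic process 14 were higher and 1 lower (median 2.32), and their reads summed to 1207, 805 and 4878. The lignin median was 1.66 with no minimum on reads and 4.04 with a minimum of 100 reads. In both terms the reactivating sum was the lowest of the 3 and the active sum the highest. The terms were taken by their share of higher unigenes, which favours a low reactivating sum.

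The next Process terms held a smaller core of higher unigenes. Polysaccharide catabolic process had 10 of 24 higher and 1 lower (median 0.77). L-phenylalanine metabolic process, which supplies and consumes the entry compound of lignin, had 12 of 35 higher and 1 lower (0.23). Pentose metabolic process had 8 of 28 higher and 0 lower (0.68), and its reads summed to 3901, 5515 and 8459. Jasmonic acid metabolic process had 9 of 35 higher and 2 lower (0.23). Regulation of cell growth had 3 of 10 higher and 0 lower (0.50). Its highest member by ratio was the receptor-like kinase THESEUS 1 (Unigene45744), a sensor of the state of the wall in Arabidopsis, with 86, 8 and 28 reads. Lipid biosynthetic process was mixed, with 5 of 15 higher and 2 lower.

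The lower side of the Process terms was led by respiration and starvation. Of the 42 unigenes of respiratory electron transport chain 10 were lower and 0 higher (median -0.37), and electron transport chain had 2 of 13 lower and 0 higher (-0.51). The reads of the respiratory term summed to 6431, 7393 and 6724, a ratio of 0.911 (0.881 to 0.941). Cellular response to starvation had 8 of 49 lower and 3 higher (-0.32, and 0.10 with reads summed by description), and its reads summed to 10114, 9820 and 7165. Unigene48151 of this term, of unknown function, had 1089, 1166 and 202 reads, 5.77-fold lower (4.96 to 6.73). Unigene9536 of the same term had 714, 440 and 70 reads. On the other side stood an S-like ribonuclease (Unigene14267), named by its best hit as the Nicotiana glutinosa enzyme, with 182, 18 and 111 reads, 6.17-fold higher (3.73 to 10.8). Cellular amino acid derivative metabolic process held both directions at high shares, with 9 of 35 higher and 5 lower.

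**Figure D3:**
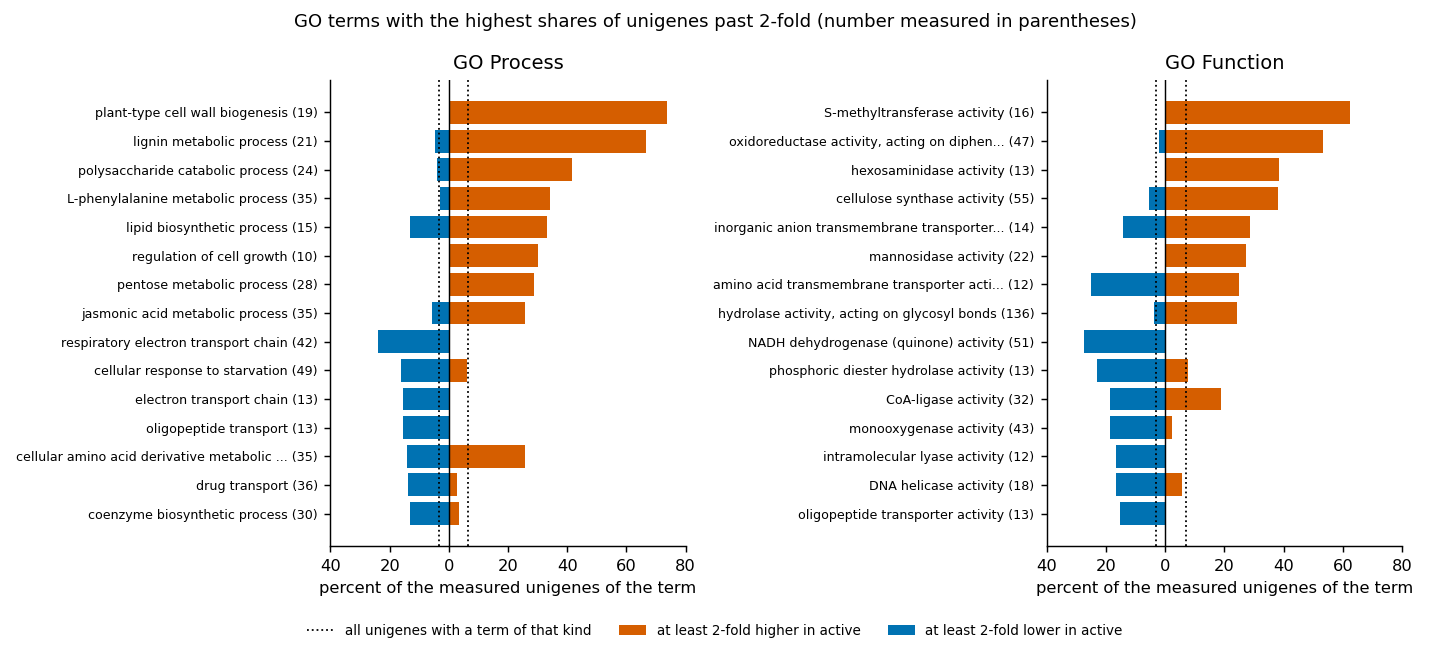
Percent of the measured unigenes of each GO term (bars, horizontal axis) at least 2-fold higher (orange, to the right) or lower (blue, to the left) in the active library, for the terms with the highest shares each way in Process and Function. The dotted lines are the shares of all unigenes with a term of that kind, 6.59% and 3.5% for Process and 6.86% and 3.11% for Function.

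By Function the highest share of higher unigenes was that of S-methyltransferase activity. Of its 16 unigenes 10 were higher and 0 lower (median 1.75), and their reads summed to 1890, 2052 and 3698. Most of them had a best hit of unknown function, and the 16 unigenes had 6 distinct best hits. The unigene with the largest ratio, Unigene45453, had 48, 43 and 273 reads. A named member, 5-methyltetrahydrofolate:homocysteine methyltransferase (Unigene54897), which makes methionine, had 67, 84 and 96 reads.

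Oxidases of diphenols, the class of the laccases, had 25 of 47 higher and 1 lower (median 1.05). Cellulose synthase activity had 21 of 55 higher and 3 lower (0.64), with reads summing to 5012, 6333 and 17645, and a median of 0.08 over unigenes of at least 500 bases. Hexosaminidase activity had 5 of 13 higher and 0 lower (0.85), and mannosidase activity 6 of 22 higher and 0 lower (0.28). Both kinds of enzyme trim sugar chains of glycoproteins or polysaccharides. The wide class of hydrolases acting on glycosyl bonds had 33 of 136 higher and 5 lower (0.10).

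Inorganic anion transmembrane transporters had 4 of 14 higher and 2 lower. A sulfate/bicarbonate/oxalate exchanger named sat-1 (Unigene28507) had 24, 3 and 113 reads, and its ratio was 37.7 (12.6 to 186). A second unigene of that name (Unigene36093) had 43, 5 and 178 reads, 35.6-fold higher (15.0 to 111). In the same class Unigene17755, of unknown function, had 24, 265 and 78 reads, 3.39-fold lower (2.63 to 4.43). The class thus held members that were high in different libraries.

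On the lower side of Function stood NADH dehydrogenase (quinone) activity, with 14 of 51 lower and 0 higher (median -0.21). Of the 51, 20 lay above 0, and the reads of the term summed to 7881, 8811 and 8084, a ratio of 0.919 (0.891 to 0.947). Phosphoric diester hydrolases had 3 of 13 lower and 1 higher (-0.57), and their reads summed to 2121, 2771 and 1341. Most of that difference was Unigene57481, a predicted protein, with 820, 1313 and 356 reads, 3.68-fold lower (3.27 to 4.15). Monooxygenases had 8 of 43 lower and 1 higher (-0.17), and intramolecular lyases 2 of 12 lower and 0 higher (-0.49). CoA-ligases were split, with 6 of 32 higher and 6 lower.

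None of the 82 Component terms had a median of 1 or more, or of -1 or less. The extracellular region had 38 of 214 unigenes higher and 8 lower (median 0.18), and the cell wall 30 of 209 higher and 6 lower (0.16). The reads of the cell wall term summed to 26290, 52092 and 52752, a ratio of 1.01 (1 to 1.03). Cytoplasmic vesicle had 133 of 1184 higher and 30 lower (0.05), and the microtubule cytoskeleton 15 of 103 higher and 4 lower (0.00). The mitochondrial respiratory chain had 8 of 55 lower and 0 higher (0.02), and chromatin 5 of 52 lower and 0 higher (-0.16). All 13 unigenes of the small ribosomal subunit lay below 0 (median -0.36), with 1 of them lower.

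The largest Process terms had medians within 0.5 of 0. Metabolic process had 78 of 933 unigenes higher and 49 lower (median -0.01), protein modification process 50 of 794 higher and 20 lower (0.03), and transport 36 of 529 higher and 24 lower (-0.02). Regulation of gene expression had 32 of 455 higher and 14 lower (0.00). Response to stress had 22 of 393 higher and 18 lower (-0.16). Adenyl ribonucleotide binding, the largest Function term, had 81 of 1869 higher and 52 lower (-0.04). Among the largest Component terms the share of higher unigenes was 4.67% for intracellular membrane-bounded organelle, 6.94% for membrane, 4.17% for plastid, 9.39% for cell part and 11.2% for cytoplasmic vesicle, against 6.34% of all unigenes with a Component term.

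The names of the best hits give a finer view than the GO terms. Of the 4005 unigenes whose best hit names a protein 9.06% were higher and 5.49% lower, and these shares are the background used for the lists that follow. The lists themselves were matched on the descriptions of all 23659 unigenes with a best hit. Of those 6.57% were higher and 3.38% lower. Of 62 name lists with at least 5 measured unigenes, 3 had a median of at least 1, 3 had a median of -0.5 or less and 54 had a median within 0.5 of 0. A name is that of a relative in another species, and several unigenes can be pieces of 1 transcript.

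**Figure D4:**
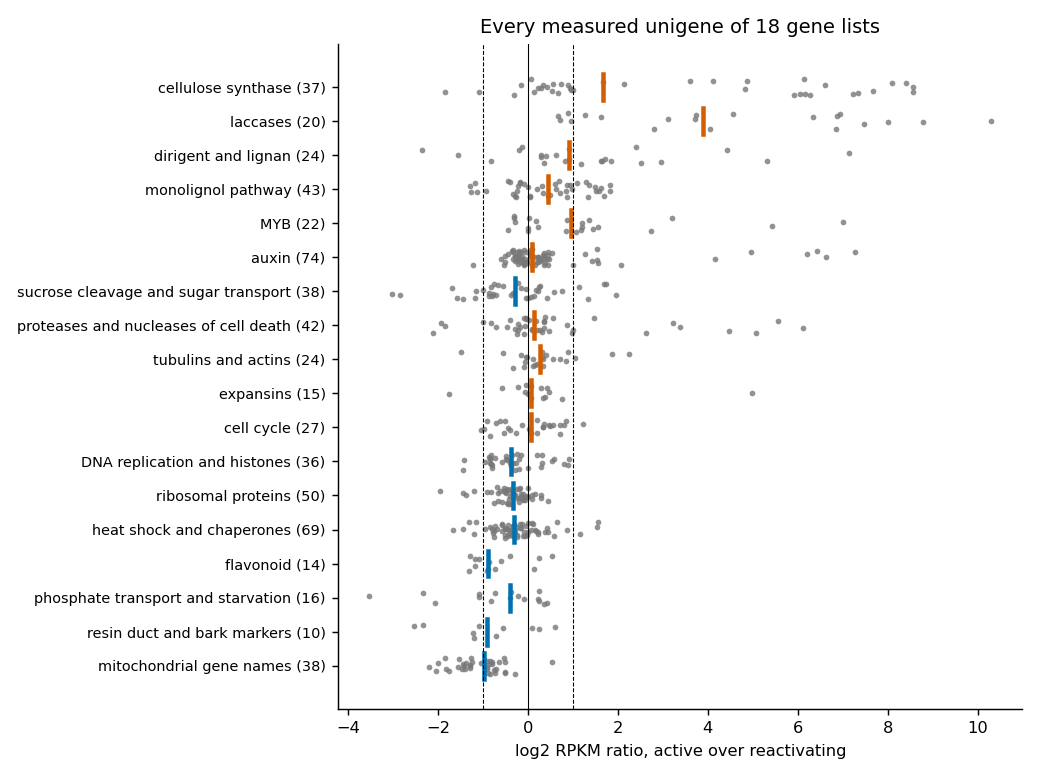
Log2 RPKM ratio, active over reactivating, of every measured unigene (grey points) of 18 lists of best-hit names, with the list median as a bar and the number measured in parentheses. Cellulose synthases and laccases spread from below or near 0 to above 8, while mitochondrial gene names lie almost wholly below 0.

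Cellulose synthases gave the second highest median of the lists of 5 or more. Of 37 unigenes 20 were higher and 2 lower (median 1.67), with 17 distinct best hits. Their reads summed to 3045, 1887 and 13915, 7.38-fold higher (7.04 to 7.75). The median was 3.61 with a minimum of 100 reads and 0.94 for the 9 unigenes of at least 500 bases. The list held a group of unigenes that were almost absent from the reactivating library and a group that was present in it at a like level.

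In the first group, the catalytic subunit Unigene59204 had 117, 4 and 1517 reads. Its RPKM was 11.3, 0.387 and 147, and the ratio of the last 2 was 380 (148 to 1395). A short unigene named cellulose synthase (Unigene36889) had 115, 4 and 1092 reads, 273-fold higher (106 to 1005). Cellulose synthase 2 (Unigene48653) had 106, 5 and 1011 reads, 202-fold higher (86.5 to 625), and cellulose synthase 7.1 (Unigene45417) had 212, 12 and 788, 65.7-fold higher (37.4 to 128). The dormant level stood between the other two in each of these 4 unigenes. Of the 14 unigenes described as a catalytic subunit of cellulose synthase 13 were higher and 0 lower (median 6.16), and their reads summed to 1350, 181 and 7075.

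In the second group, Unigene9258, of 1695 bases, had 145, 333 and 297 reads. Unigene44152 had 58, 160 and 176 reads and Unigene54748 had 60, 132 and 139. Catalytic subunit Unigene53568 was the exception of its name, with 295, 114 and 92 reads, 1.24-fold lower (0.932 to 1.65). The unigene Unigene16267 had 260, 81 and 38 reads, 2.13-fold lower (1.43 to 3.22).

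Synthases of other wall polysaccharides split by kind. Of 6 cellulose synthase-like unigenes 3 were higher and 1 lower, and all 3 were of the A type, which makes the backbone of mannans, the main hemicelluloses of conifer wood. Cellulose synthase-like A2 (Unigene58288) had 174, 163 and 1095 reads, 6.73-fold higher (5.7 to 7.98), and A1 (Unigene38753) had 81, 37 and 359, 9.71-fold higher (6.91 to 14). The lower one, of the D type (Unigene43087), had 0, 37 and 17 reads. Galactomannan galactosyltransferase 1 (Unigene47114), which adds the side chains of mannans, had 112, 8 and 483 reads, 60.4-fold higher (30.4 to 141).

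Of 11 unigenes for xylan and related synthesis 4 were higher and 1 lower (median 0.11). Among them a beta1,3-glucuronosyltransferase (Unigene58732) had 349, 328 and 870 reads, 2.66-fold higher (2.34 to 3.02). A second one (Unigene56480) had 225, 256 and 713 reads, 2.79-fold higher (2.41 to 3.23). The list was drawn by name and also held a beta-1,2-xylosyltransferase (Unigene58848), whose name alone does not place it in xylan synthesis. It had 417, 442 and 473 reads, nearly level in all 3 libraries.

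Sucrose synthase splits sucrose into fructose and the UDP-glucose from which cellulose is built. Unigene33279 had 223, 491 and 1232 reads, 2.51-fold higher (2.26 to 2.79). Unigene33915 had 123, 248 and 828, 3.34-fold higher (2.9 to 3.87). The long sucrose synthase Unigene7109, of 2643 bases, was higher in the reactivating library, at 800, 676 and 393 reads, 1.72-fold lower (1.52 to 1.95). Invertases, which split sucrose without making UDP-glucose, included some of the lowest ratios. The cell wall beta-fructofuranosidase Unigene54463 had 368, 101 and 14 reads, 7.21-fold lower (4.1 to 13.7), and beta-fructofuranosidase Unigene17421 had 532, 73 and 9, 8.1-fold lower (4.04 to 18.4). A putative soluble acid invertase (Unigene30043) had 33, 59 and 130 reads and was on the higher side. The list of sucrose cleavage and sugar transport had 5 of 38 higher and 7 lower (median -0.27).

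Callose is a beta-1,3-glucan laid down in new cell plates and sieve pores. Of 17 unigenes of callose synthases and beta-1,3-glucanases 5 were higher and 0 lower, all 5 of them synthases. The abundant 1,3-beta-glucan synthase Unigene56308 had 692, 539 and 1450 reads, 2.69-fold higher (2.44 to 2.98), and callose synthase 3 (Unigene59472) had 292, 123 and 456, 3.71-fold higher (3.04 to 4.57). The glucanase Unigene57007 had 1, 1434 and 1241 reads, 1.15-fold lower (1.07 to 1.25). The median of the list was 0.06, against 1.48 for the 8 unigenes of at least 500 bases.

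Genes of the growing primary wall were closer to level. Of 15 expansins, which loosen walls, 1 was higher and 1 lower (median 0.07). The higher one, an expansin-like protein (Unigene53531), had 611, 2 and 63 reads, a ratio of 31.5 (8.38 to 266). Alpha-expansin 3 (Unigene57087) had 186, 1182 and 1619 reads, 1.37-fold higher (1.27 to 1.48), and expansin 2 (Unigene25630) had 43, 648 and 557, 1.16-fold lower (1.04 to 1.3). Of 19 xyloglucan endotransglucosylases and endoglucanases 1 was higher and 2 lower (-0.09). The most read of them, endo-beta-1,4-glucanase Unigene49670, had 8, 2181 and 3651 reads, 1.68-fold higher (1.59 to 1.77). A xyloglucan endotransglycosylase (Unigene2754), which cuts and rejoins the tethers between cellulose fibrils, had 45, 88 and 29 reads, 3.03-fold lower (1.97 to 4.78). Of 26 pectin enzymes 4 were higher and 1 lower (0.39). A pectin methylesterase (Unigene227) had 1, 1 and 129 reads, and its ratio was 129 (22.8 to 5140).

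Side-chain glycosidases, which trim sugar chains of wall polysaccharides or glycoproteins, had 6 of 20 higher and 0 lower (median 0.37, and -0.01 for the 8 of at least 500 bases). Alpha-L-arabinofuranosidase/beta-D-xylosidase Unigene45159 had 996, 1 and 131 reads, a ratio of 131 (23.1 to 5219). The summed reads of the list were almost level, at 4276, 4323 and 4504.

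Laccases had the highest median of all lists. Of 20 unigenes 16 were higher and 0 lower (median 3.89), and all 20 lay above 0. Their reads summed to 3503, 903 and 13165, 14.6-fold higher (13.6 to 15.6), with 7 distinct best hits. The median was 6.33 with a minimum of 100 reads and 4.64 with 1 read added to both libraries.

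The laccases differed from each other in the dormant library. Unigene55856 had 353, 1 and 1256 reads, a ratio of 1257 (225 to 49705). Unigene16870 had 5, 0 and 526 reads. Unigene4888 had 2, 52 and 857 reads, and Unigene12866 had 32, 461 and 1110. Unigene28704, the laccase with the smallest ratio, had 1, 122 and 194 reads. The first had its lowest level in the reactivating library, whereas the last 3 named had theirs in the dormant one.

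The monolignol pathway, which makes the lignin subunits, was mixed. Of 43 unigenes 11 were higher and 4 lower (median 0.44), and the 5 of at least 500 bases had a median of -0.39, so the sign of the median depended on unigene length. Phenylalanine ammonia-lyase, its first enzyme, had members on both sides. Unigene47129 had 111, 34 and 121 reads, 3.56-fold higher (2.42 to 5.38). Unigene44660 had 996, 958 and 441 reads, 2.17-fold lower (1.94 to 2.43). The same held for 4-coumarate:CoA ligase, which activates the acids of the pathway. Unigene30094 had 380, 179 and 578 reads, 3.23-fold higher (2.73 to 3.84), and Unigene55723 had 961, 672 and 281, 2.39-fold lower (2.08 to 2.76). Upstream of the pathway, arogenate dehydratase 2 (Unigene49272), which makes phenylalanine, had 91, 23 and 79 reads, 3.44-fold higher (2.14 to 5.73). Hydroxycinnamoyltransferase (Unigene50956), a later step, had 92, 58 and 204 reads, 3.52-fold higher (2.62 to 4.8).

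Peroxidases, the other enzymes that oxidise lignin subunits, had 5 of 18 higher and 1 lower (median 0.27, and -0.43 for the 6 of at least 500 bases). Peroxidase 40 (Unigene33614) had 1, 3 and 58 reads, a ratio of 19.4 (6.3 to 96.6). Peroxidase 47 (Unigene56335) had 1672, 449 and 210 reads, 2.14-fold lower (1.81 to 2.53). The single blue copper protein (Unigene57297) had 30, 51 and 126 reads, 2.47-fold higher (1.77 to 3.5).

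Dirigent proteins steer the coupling of monolignols into lignans, and reductases finish these compounds. Of 24 unigenes of this list 11 were higher and 2 lower (median 0.91, and 0.30 for the 7 of at least 500 bases). Pinoresinol-lariciresinol reductase Unigene25524 had 115, 0 and 422 reads, a ratio of at least 141. Isoflavone reductase-like protein CJP-6 (Unigene48885) had 65, 70 and 1494 reads, 21.4-fold higher (16.8 to 27.6). Dirigent-like protein Unigene49811 had 97, 144 and 1129 reads, and dirigent-like protein pDIR10 (Unigene634) had 2, 72 and 14, 5.14-fold lower (2.87 to 9.86).

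Flavonoid synthesis branches from the same precursors and lay on the other side. Of 14 unigenes 0 were higher and 5 lower (median -0.88), and their reads summed to 2573, 2422 and 1378, 1.76-fold lower (1.64 to 1.88). Flavonoid 3-hydroxylase Unigene28009 had 174, 235 and 110 reads, 2.13-fold lower (1.69 to 2.7). Leucoanthocyanidin reductase (Unigene18906), which makes flavan-3-ols, had 592, 586 and 353 reads and Unigene53673 of the same name had 385, 414 and 222. Both of these were lower in the active library by less than 2-fold.

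Transcription factors of the MYB family include switches of secondary wall genes. Of 22 MYB unigenes 11 were higher and 0 lower (median 0.97), and their reads summed to 3036, 2089 and 3417. The interval lay wholly beyond 2-fold for 4 of them. The ratio of the factor MYB2 (Unigene57435), with 3, 3 and 129 reads, was 43.0 (14.4 to 211), and a Myb4 (Unigene1847) had 0, 1 and 129. The MYB with the most reads in the 2 libraries (Unigene58233) had 338, 488 and 1021. A MYB-like protein (Unigene6183) had 1153, 311 and 227 reads, 1.37-fold lower (1.15 to 1.63). Among 4 NAC factors, a family that acts above the MYBs in wall formation, 1 was higher, with 235, 134 and 590 reads (Unigene3279), 4.41-fold higher (3.65 to 5.36). A GATA factor (Unigene18316) had 14, 16 and 379 reads, 23.7-fold higher (14.4 to 41.9).

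Homeobox factors, among them regulators of stem cells and vascular pattern, were nearly level. Of 29 unigenes 1 was higher and 0 lower (median 0.00), and their reads summed to 6677, 11607 and 12080. The higher one, a class III HD-Zip factor (Unigene49574), had 5, 16 and 32 reads. Another of that class, C3HDZ1 (Unigene56176) had 41, 193 and 377 reads, 1.96-fold higher (1.64 to 2.34), just under the threshold. KNOTTED1-like homeodomain protein 2 (Unigene33452) had 277, 319 and 207 reads, 1.54-fold lower (1.29 to 1.84).

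Auxin is the main growth hormone of the cambium. Of 74 auxin unigenes 12 were higher and 1 lower (median 0.09). Of the 12 higher ones 6 carried a single name, auxin induced-like protein, of which 12 were measured and 0 were lower. Unigene10183 of that name had 32, 0 and 463 reads, a ratio of at least 155, and Unigene11714 had 13, 0 and 220. Unigene55109, of the same name, was level between the 2 libraries with 480, 1639 and 1437 reads. Auxin-induced in root cultures protein 12 (Unigene11866), a membrane cytochrome, had 82, 8 and 790 reads, 98.9-fold higher (49.9 to 230). PIN-like auxin efflux carrier Unigene55775, of the family that moves auxin out of cells, had 215, 389 and 273 reads.

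The other hormone and signalling lists had medians within 0.5 of 0, and some held higher shares of lower unigenes than the background. Gibberellin and GRAS had 1 of 26 higher and 2 lower (median 0.14), cytokinin and two-component 3 of 22 higher and 4 lower (-0.13), brassinosteroid and jasmonate 2 of 23 higher and 4 lower (-0.15), and AP2/ERF with ethylene 2 of 21 higher and 0 lower (0.10). Names of the abscisic acid pathway had 1 of 12 lower and 0 higher (-0.03). Receptor kinases of the CLAVATA and leucine-rich type had 7 of 82 higher and 2 lower (0.18). All 14 unigenes named clavata-like receptor lay above 0, and 2 of them passed 2-fold. NBS-LRR immune receptors had 7 of 81 higher and 15 lower (-0.15). The lower share was 18.5% for these receptors, 18.2% for cytokinin and 17.4% for brassinosteroid and jasmonate, against 5.49% of all unigenes whose best hit names a protein. Few of these calls were clear of counting error. The interval lay wholly beyond 2-fold lower for 1, 0 and 0 unigenes of the 3 lists in that order. The ratios of their summed reads were 0.971, 0.949 and 0.88.

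Proteases take part in the programmed death of xylem cells. Of 42 unigenes of proteases and nucleases 9 were higher and 3 lower (median 0.14). Cysteine protease Unigene27284 had 555, 6 and 416 reads, 69.4-fold higher (31.6 to 190), and cysteine proteinase Unigene52401 had 685, 17 and 574, 33.8-fold higher (20.9 to 58.4). A subtilisin-like endopeptidase (Unigene480) had 306, 5 and 237 reads, 47.5-fold higher (20.1 to 147). In all 3 the reactivating library had the fewest reads, which naming them for a high ratio over that library favours. Subtilisin-like protein Unigene40938 lay on the lower side at 338, 451 and 104 reads, 4.33-fold lower (3.49 to 5.41).

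Names of DNA replication lay slightly on the lower side, and those of the cell cycle were level. DNA replication and histones had 0 of 36 higher and 2 lower (median -0.37), and their reads summed to 2318, 7771 and 6107, 1.27-fold lower (1.23 to 1.31). A histone H4 (Unigene1449) had 0, 67 and 25 reads, 2.68-fold lower (1.67 to 4.42). The cell cycle list had 1 of 27 higher and 1 lower (0.06), the lower one being B1-type cyclin dependent kinase (Unigene44389), active at mitosis, with 6, 49 and 24 reads. MAD2 (Unigene9577), which delays mitosis until all chromosomes are attached, had 0, 134 and 68 reads, 1.97-fold lower (1.46 to 2.68).

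The cytoskeleton guides both division and the path of cellulose synthases. Of 24 tubulins and actins 3 were higher and 1 lower (median 0.26). The 3 higher ones were beta-tubulins. Tubulin beta-6 (Unigene39485) had 82, 275 and 1304 reads, 4.75-fold higher (4.17 to 5.43), and tubulin beta-7 (Unigene21993) had 26, 74 and 269, 3.64-fold higher (2.8 to 4.77). Another beta-tubulin (Unigene56293) had 96, 1775 and 1585 reads. The most read actin (Unigene50140) had 151, 3216 and 2182 reads, 1.47-fold lower (1.39 to 1.56). A protein named SP1L (Unigene29808), whose Arabidopsis relatives bind microtubules, had 19, 0 and 285 reads, a ratio of at least 95.1.

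Aquaporins let water through membranes. Unigene49827, of the plasma membrane type, had 2167, 12 and 2138 reads, 178-fold higher (102 to 346). Of 5 aquaporins 2 were higher and 0 lower, and the putative aquaporin Unigene24515, the next most read, had 189, 598 and 779 reads, 1.3-fold higher (1.17 to 1.45).

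Phosphate transport and starvation genes lay on the lower side. Of 16 unigenes 0 were higher and 5 lower (median -0.39), and their reads summed to 2292, 2637 and 1440, 1.83-fold lower (1.71 to 1.95). A phosphate transporter (Unigene57796) had 38, 345 and 30 reads, an RPKM of 5.91, 53.7 and 4.67, and was 11.5-fold lower (7.9 to 17.3). It was high in the reactivating library alone, which naming it for a low ratio to that library favours. The SPX protein Unigene53067, of the phosphate sensing family, had 734, 784 and 156 reads, 5.02-fold lower (4.22 to 6). Glycerophosphodiester phosphodiesterase (Unigene43724), which frees phosphate from lipids, had 105, 167 and 40 reads, 4.17-fold lower (2.94 to 6.05). An acid phosphatase (Unigene47778) had 50, 181 and 243 reads, so not every member lay on that side.

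Other transport lists were spread around 0. Nitrogen transport and assimilation had 9 of 73 higher and 6 lower (median 0.11), ABC transporters 10 of 95 higher and 4 lower (-0.02) and potassium, sulfate and other ions 4 of 46 higher and 3 lower (-0.02). The potassium channel Unigene18950 had 660, 690 and 329 reads, 2.09-fold lower (1.83 to 2.4). The ABC transporter Unigene14743 had 77, 84 and 10 reads, 8.39-fold lower (4.34 to 18.1). Vacuolar iron transporter-like protein Unigene16089, which stores iron in the vacuole, had 0, 193 and 24 reads, 8.03-fold lower (5.24 to 12.8), and was the only one of 14 metal genes past 2-fold.

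**Figure D5:**
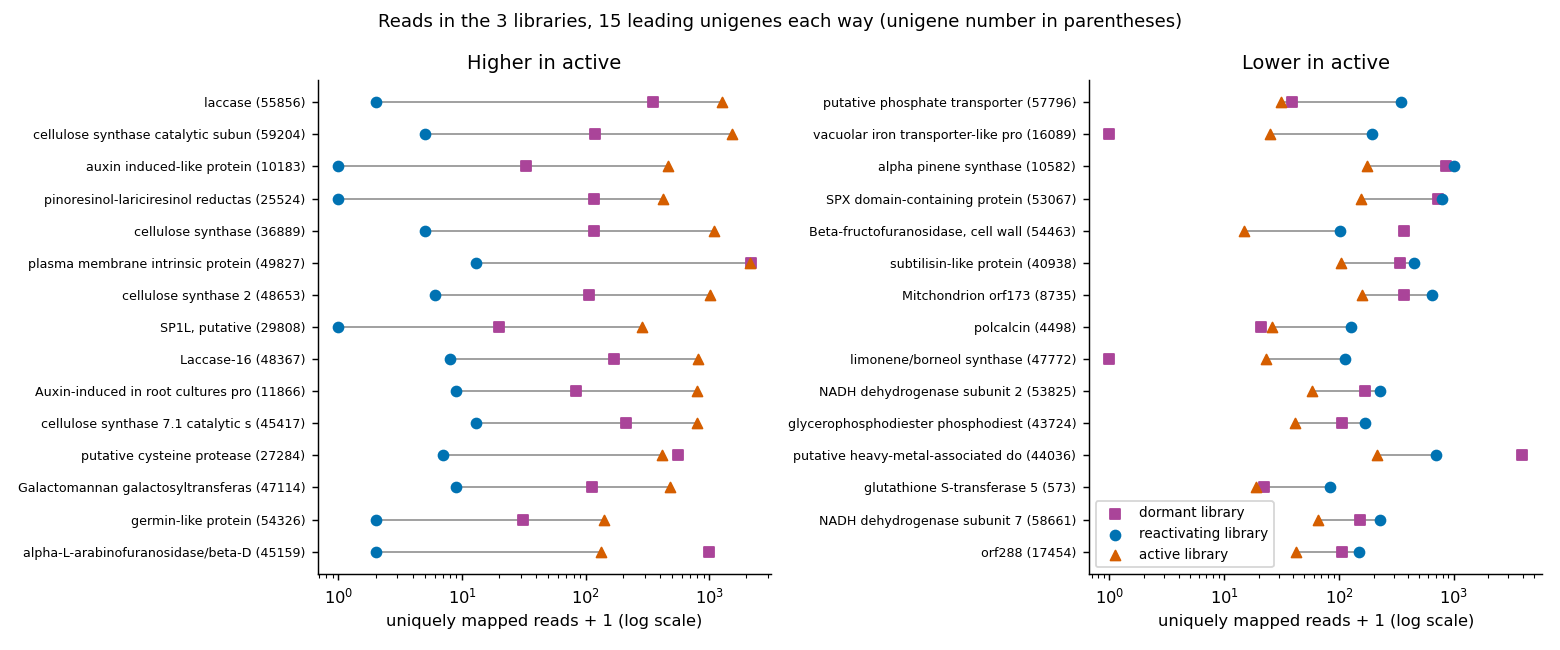
Uniquely mapped reads plus 1 (horizontal log axis) in the dormant, reactivating and active libraries for 15 higher and 15 lower unigenes whose best hit names a protein, ranked by the bound of the counting interval nearest to 1, 1 per name. Grey lines join the reactivating and active values, and in the left panel the reactivating value is the lowest in all 15. The ranking picks unigenes with low reactivating reads, so dormant values above them are favoured by that choice.

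Terpenoids are the base of conifer resin. The terpenoid list had 2 of 45 higher and 4 lower (median -0.14). Alpha pinene synthase (Unigene10582) had 861, 1011 and 176 reads, 5.74-fold lower (4.88 to 6.77), and limonene/borneol synthase (Unigene47772) had 0, 111 and 22, 5.04-fold lower (3.17 to 8.37). Taxadiene 5-alpha hydroxylase (Unigene16340), a name from taxane synthesis in yew, had 77, 19 and 64 reads, 3.37-fold higher (1.99 to 5.96).

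Storage and carbon lists moved little as wholes. Starch, raffinose and trehalose had 2 of 40 higher and 5 lower (median -0.09). Granule-bound starch synthase (Unigene23756), which makes amylose, had 180, 571 and 217 reads, 2.63-fold lower (2.24 to 3.09). Trehalose-6-phosphate synthase (Unigene8965), which makes a sugar signal, had 208, 38 and 128 reads, 3.37-fold higher (2.33 to 4.98). Glycolysis and citrate cycle had 3 of 63 higher and 2 lower (-0.11), and pyruvate decarboxylase (Unigene40624), the first enzyme of ethanol fermentation, had 617, 1183 and 569 reads, 2.08-fold lower (1.88 to 2.3).

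Names of genes that plant mitochondria encode themselves were lower in the active library. Of 38 unigenes 0 were higher and 19 lower (median -0.98), and 37 lay below 0. Their reads summed to 4066, 5099 and 2231, 2.28-fold lower (2.17 to 2.4). NADH dehydrogenase subunit 2 (Unigene53825), of the first complex of the respiratory chain, had 166, 226 and 57 reads, 3.96-fold lower (2.95 to 5.39). Subunit 4 (Unigene13652) had 211, 445 and 151 reads, 2.94-fold lower (2.44 to 3.56). The open reading frame orf173 (Unigene8735) had 368, 650 and 159 reads, 4.08-fold lower (3.43 to 4.89). Libraries were made from RNA selected on oligo(dT) beads, per the labels' protocols, and the part of this selection in organelle reads was not tested.

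Names of plastid genes had 4 of 20 lower and 0 higher (median -0.31), and their reads summed to 2779, 2194 and 1509. RNA polymerase beta' subunit (Unigene41901) had 394, 463 and 164 reads, 2.82-fold lower (2.35 to 3.39). The respiratory GO terms named above held mitochondrial names together with others. Their medians were nearer to 0 than that of the mitochondrial names.

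Protein synthesis and folding shifted by less than 2-fold. Ribosomal proteins had 0 of 50 higher and 4 lower (median -0.33), with read sums of 6864, 9066 and 7705, 1.18-fold lower (1.14 to 1.21). Heat shock proteins and chaperones had 3 of 69 higher and 5 lower (-0.30), with 25444, 41011 and 31549, 1.3-fold lower (1.28 to 1.32). The most read of them, a heat shock cognate 70 protein (Unigene544), had 1828, 4573 and 2683 reads, 1.7-fold lower (1.62 to 1.79). Translation factors had 2 of 50 higher and 0 lower (-0.03), ubiquitin and proteasome 6 of 84 higher and 0 lower (0.01), and Golgi and vesicle traffic 1 of 42 higher and 0 lower (0.01). Dehydrins and other cold-linked proteins had 0 of 9 past 2-fold on the higher side and 0 on the lower (-0.15).

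Marker names of the cell types a section can hold were checked against the label. Regulators of the cambium were present in both libraries and differed in direction. A WUSCHEL homeobox protein (Unigene51479) had 13, 244 and 192 reads and an AINTEGUMENTA-like protein (Unigene12165) had 543, 837 and 574. Their log2 ratios were -0.34 and -0.54. The class III HD-Zip factor C3HDZ1 (Unigene56176) went the other way, at 0.97. So did all 14 unigenes named clavata-like receptor, with a median of 0.57. These regulators were not drawn up as a list, so no median is given for them together. A short list of differentiating xylem markers other than cellulose synthases and laccases had 0 of 6 higher and 0 lower (median 0.05). The reads of this list summed to 981, 1579 and 1752. It did not hold the cysteine proteases Unigene27284 and Unigene52401 or the NAC factor Unigene3279. These are also names linked to xylem, and each was higher, with log2 ratios of 6.12, 5.08 and 2.14. Fasciclin-like arabinogalactan protein 13 (Unigene41968), a protein of wood-forming walls, had 672, 609 and 614 reads. Phloem markers had 3 of 10 higher and 0 lower (0.19), all 3 of them callose synthases, with sums of 1372 and 1996. Resin duct and bark markers had 0 of 10 higher and 5 lower (-0.90), with sums of 1336 and 360. Alpha pinene synthase held most of the first of these sums. Green tissue markers were sparse, with 10 measured, 1 higher and 1 lower (-0.37), and sums of 394 and 275 reads. The part of differing shares of these cell types in the gene lists above was not tested.

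Unigenes without a best hit differed from the others mainly in their share of lower unigenes. Of the 12420 measured ones 7.13% were higher and 8.49% lower, against 6.57% and 3.38% of the 23659 with a best hit. Having a best hit went with depth. Among unigenes with 20 to 49 reads 49% had one and 10.9% were lower. Among those with at least 500 reads 84.5% had one and 1.8% were lower. The part of depth in the difference between unigenes with and without a hit was not tested. Ranked by the bound of the interval nearest to 1, 29 of the first 100 higher unigenes had no best hit, as did 53 of the first 100 lower ones. Unigene22717, of 163 bases and without a hit, had 227, 173 and 2698 reads, 15.6-fold higher (13.4 to 18.3). Unigene45585, also without a hit, had 9407, 2749 and 653 reads, 4.2-fold lower (3.86 to 4.59). The first had its most reads in the active library, and the second in the dormant one.

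Read coverage along the unigenes comes from the same reads as the counts. Its direction in the higher and lower groups therefore follows from how these groups were chosen and is no second observation. In the higher group 58.4% of the unigenes were covered over at least 90% of their length in the active library and 25.4% in the reactivating one. In the lower group the shares were 24.1% and 53.9%. Over all measured unigenes they were 59.9% and 60.6%. Laccase Unigene55856 was covered over 99.9% of its length in the active and 6.27% in the reactivating library.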

How the data were processed

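RNA enriched on oligo(dT) beads from 3 cambium libraries was cut to fragments of 200 bp and read on an Illumina instrument, as the labels' protocols state. The tables as deposited give, per unigene, the count of uniquely mapped reads and the coverage in percent of its length, per the file headers. The authors' deposited RPKM equalled count over length and library total within a relative 1e-06. No aligner is given in the sources used here. Tables of the 2 stages were joined by unigene and a unigene missing from one was given 0 reads. Ratios of RPKM with 95% Clopper-Pearson intervals were computed with scipy 1.17.1. The intervals and the floor of 3 reads, an RPKM of 0.513 on a unigene of 1 kb, cover counting error only. With 1 library per stage no p-value was computed. The ratio code was tested on simulated counts.

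The members and lists were chosen with earlier results of these data known, and the name patterns of the lists were corrected after the files were read, to drop names that shared only letters. GO terms had at least 10 measured unigenes and were taken by their share of higher or lower members, with the 5 largest per kind. Unigenes were named by rank of the interval bound nearest to 1, by mean RPKM or ratio within a list or term, or by gain or loss of library share. Those printed with read numbers and no ratio may fall outside this rule and were chosen after their values were seen. A best hit is a name from another plant, and sequences of the unigenes were not used here. Alternatives were edgeR 4.0.16 and DESeq2 1.42.0 scaling, other minimums on reads or length, 1 read added, sums by name, and a 4-fold or interval threshold.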

Additional observations from a re-analysis of the deposited data

How the results depend on the processing

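The counts of 2439 higher and 1853 lower unigenes followed the thresholds. With no minimum on reads they were 5539 and 3864, with at least 100 reads 1004 and 536, with at least 500 bases 901 and 431, and with reads summed by description 162 and 116. At 4-fold they were 774 and 245, and with the interval wholly beyond 2-fold 961 and 311. These settings change how many unigenes enter or how large a ratio counts. Scaling by TMM gave 2603 and 1702, DESeq2's size factors 2497 and 1810, and 1 read added to both libraries 2284 and 1714. Over these settings the median of all measured unigenes lay between -0.07 and 0.00. Of 417 medians of lists under an alternative 11 moved by over 0.5, of 391 medians of GO terms 13 did, and of 1776 ratios of named unigenes 3 left their interval. No list or term with a median reported beyond 2-fold changed sign under these alternatives. TMM and DESeq2 scaling multiply every ratio by the same small factor. Their values, counted in the 417 and 391, could neither move a median by 0.5 nor reverse one beyond 2-fold. Named unigenes were rerun only with TMM, DESeq2's size factors and 1 read added. These settings cannot reverse a ratio of 2-fold or more, so no conclusion on sign is drawn for single unigenes. Medians near 0 did, in 36 of the list values and 28 of the term values, and 3 and 1 of these had a reported median beyond 0.25. The cause of these moves was not tested. No paired analysis was possible because each stage has 1 library, and for the same reason no replicate could be left out. Ratios of unigenes under 50 reads call for the most caution, and both shares past 2-fold were largest there.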
